A study of Homo sapiens with 3 samples.

Results

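MG-OKS cells given an siRNA directed at SPRR1A were compared, gene by gene, with MG-OKS cells given a scrambled siRNA. Genes were chosen by level alone. Every gene that reached 1 CPM, a count scaled to library size, in either siRNA library was taken, which gave 13929 of the 46427 genes in the table. MG-OKS is described in the series title as an artificially generated osteosarcoma line with cancer stem cell-like properties, and the labels call it mesenchymal. The series asked what suppressing SPRR1A does to these cells and sequenced mRNA from 3 cultures, 1 library each. The SPRR1A siRNA group received a pre-designed siRNA in a lipid transfection reagent, the scrambled group received a scrambled siRNA in the same reagent, and the untransfected group is labelled WT. The siRNA sequences, the time of harvest and the promoters or vectors behind MG-OKS are not given in the sources used here. The untransfected library is shown beside each result as a further value, and the labels do not say whether its cells received the transfection reagent.

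A small interfering RNA acts through its guide strand, which is held by an Argonaute protein and leads it to matching messenger RNAs. A full match leads to cleavage of the target. A shorter match to the first part of the guide, called the seed, is the rule by which microRNAs find sites in 3′ untranslated regions (UTRs), and siRNAs can lower other transcripts through such seed sites. SPRR1A encodes a small proline-rich protein that is cross-linked into the cornified envelope of the epidermis.

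Each group is 1 library, so differences have no replicate check, no p-value can be given, and the values describe these libraries rather than the conditions. The call of higher or lower was given to a gene that differed by at least 2-fold and whose ratio had an exact 95% counting interval that excluded 1. These intervals, and floors, cover counting error only. In bulk RNA, fewer cells of a type and less RNA per cell cannot be told apart. The untransfected library held 40050593 counts, the scrambled one 36533542 and the SPRR1A siRNA one 34453554. Transcripts encoded by mitochondrial DNA took 2.59%, 2.65% and 2.86% of the counts in that order. SPRR1A, the gene the siRNA was directed at, had 0 counts in all 3 libraries, and a floor of 3 counts corresponds to 0.0737, 0.0826 and 0.088 CPM. Whether SPRR1A itself was lowered could therefore not be checked in these counts.

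Each word of 7 bases that occurs in the 3′ UTRs of at least 200 of the genes was compared for how often its holders were called. The 3′ UTR of 1 transcript per gene was read in the sense direction from GENCODE release 29 on GRCh38, for 11986 genes and 13766 words. 1 word stood farthest from the rest in each direction. GTCACCC was the word whose holders were most often called lower in the SPRR1A siRNA library relative to other genes, and GCAGTAC was the word whose holders were most often called higher. Both were chosen from these values, so their shares are a description. The sites below come from genes among the farthest lower or farthest higher, with the word in capitals and the neighbouring bases of the 3′ UTR in lower case, each written 5′ to 3′ on the strand of its gene. First come sites of GTCACCC in genes that were lower, at chr19:41207167-41207196 (+) for CYP2S1, chr5:157477530-157477559 (-) for ADAM19, chr1:12207473-12207502 (+) for TNFRSF1B, chr5:140568525-140568554 (+) for SLC35A4, chr19:16235246-16235275 (+) and chr19:16235266-16235295 (+) for AP1M1, chr12:12913310-12913339 (+) for GPRC5A and chr22:42619329-42619358 (-) for CYB5R3.
CYP2S1: tgcagccctcaGTCACCCctttttaagcac
ADAM19: acatttccaaaGTCACCCccaacgcgtcct
TNFRSF1B: atgctgcctgaGTCACCCatgaagacagga
SLC35A4: tgcctactttaGTCACCCagcagagccact
AP1M1 first copy: cggggccacgtGTCACCCacgtctgcgctt
AP1M1 second copy: gtctgcgcttgGTCACCCgtcctccccacc
GPRC5A second copy: ccaattcacagGTCACCCctctcttcttgc
CYB5R3: cagcctcgcctGTCACCCccactcccgcct

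Sites of GCAGTAC in genes that were higher follow in the same layout, at chr11:33354719-33354748 (+) and chr11:33355723-33355752 (+) for HIPK3, chr3:105575544-105575573 (+) for ALCAM, chr16:10532860-10532889 (-) and chr16:10530142-10530171 (-) for EMP2, chr19:34227645-34227674 (+) for LSM14A, chr1:180884566-180884595 (+) for XPR1, chr2:119263472-119263501 (+) for STEAP3 and chr6:11576755-11576784 (+) for TMEM170B.
HIPK3 first copy: atttttacattGCAGTACttgttttgcttg
HIPK3 second copy: agtaaaaaccaGCAGTACatttttagtcac
ALCAM: taatttatcaaGCAGTACatgaaagtgtaa
EMP2 first copy: ttgcttctgctGCAGTACagaatccacatt
EMP2 copy 3: aagccaccaatGCAGTACagggtgacctgg
LSM14A first copy: gttaaactaaaGCAGTACttcagtgggact
XPR1 first copy: tgcaacttaaaGCAGTACcttcattcatga
STEAP3: ctcaaatgtatGCAGTACtattcagaatga
TMEM170B first copy: agcatatcaatGCAGTACtgagcgtgtatt

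Across the 13929 genes, 513 (3.68%) were called higher and 988 (7.09%) lower in the SPRR1A siRNA library. The median log2 ratio was 0.00, and the middle 90% of genes lay between -1.19 and 0.89. A difference of at least 4-fold was seen for 48 genes that were higher and 143 that were lower. Genes of low level were called more often. Of the 2751 genes with 1 to 5 CPM, 7.71% were called higher and 15.6% lower. Of the 2582 genes above 100 CPM, 2.21% were called higher and 3.60% lower. Among 12183 protein-coding genes 3.18% were higher and 6.84% lower, and among 1096 long noncoding RNAs 7.94% were higher and 11.5% lower.

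**Figure D1:**
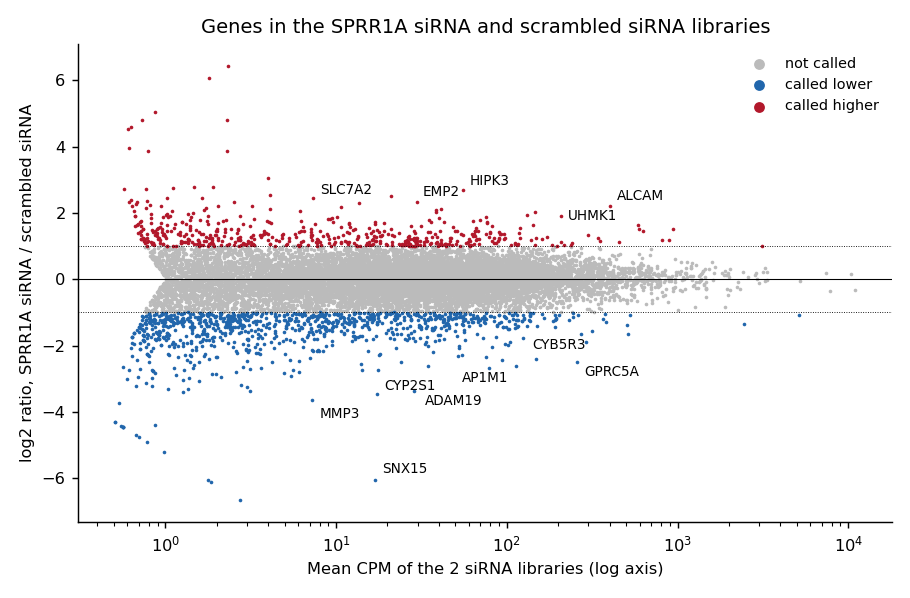
Log2 ratio of the SPRR1A siRNA to the scrambled siRNA library (vertical axis) against the mean CPM of both libraries (horizontal axis, log), 1 point per gene, with called genes in colour and dotted lines at 2-fold. The 988 lower genes reach farther from 0 at high CPM than the 513 higher genes, with ADAM19, AP1M1, GPRC5A and CYB5R3 below and HIPK3, UHMK1 and ALCAM above.

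The word GTCACCC was in the 3′ UTR of 1290 of the 11986 genes searched (10.8%). Of its holders 204 (15.8%) were called lower, against 5.70% of the genes without it and 6.79% of all genes searched. Called higher were 2.25% of its holders, against 3.1% of all genes searched. Read from the other side, 25.1% of the 814 genes called lower held the word, as did 9.79% of the genes called in neither direction. The next word in this order, CGTCACC, shares 6 bases with it and had a difference of 8.34 percentage points between holders and other genes, against 10.1 for GTCACCC. No other word exceeded the 6.39 points of TGCGGGA.

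The word GCAGTAC was in 552 of the genes searched (4.61%). Of its holders 99 (17.9%) were called higher, against 2.38% of the genes without it. It was in 26.7% of the 371 genes called higher and in 3.99% of the genes called in neither direction. The difference of 15.6 percentage points was followed by 6.00 for CGGTGAG. Both words together were in 119 genes, of which 9.24% were called higher and 5.88% lower. With neither word, 10263 genes remained, of which 2.47% were called higher and 5.80% lower, so most calls of both directions fell on genes that held neither word.

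**Figure D2:**
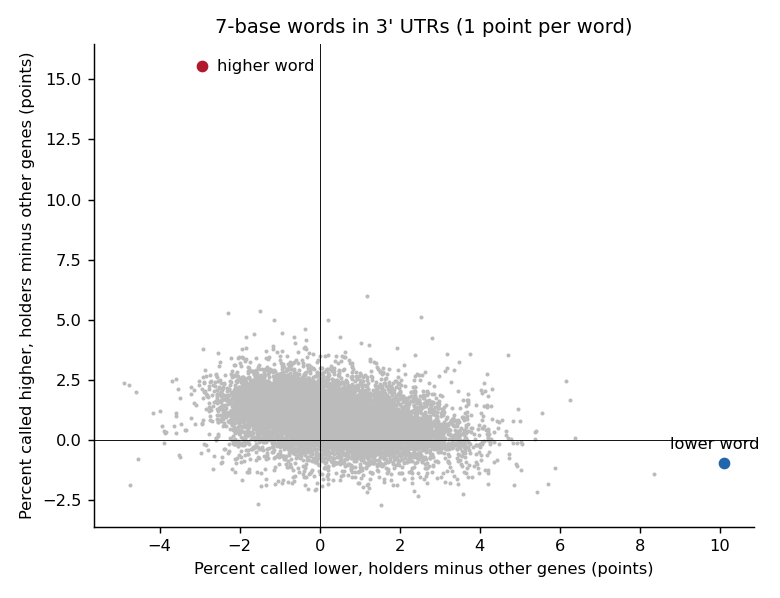
Each point is one of 13766 words of 7 bases, placed by the percentage of its holders called lower (horizontal) and higher (vertical) minus the same percentage among other genes. The word marked lower lies at 10.1 points on the horizontal axis and the word marked higher at 15.6 points on the vertical axis, both outside the cloud of other words.

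The untransfected library separated the words. Genes with GTCACCC had a median log2 ratio of -0.19 between the SPRR1A siRNA and the scrambled library and of -0.21 between the SPRR1A siRNA and the untransfected library, while the scrambled and the untransfected library differed by -0.03. These holders were thus lower in the SPRR1A siRNA library than in either control, and the controls were close. Genes with GCAGTAC had a median log2 ratio of 0.33 between the SPRR1A siRNA and the scrambled library, of 0.09 between the SPRR1A siRNA and the untransfected library and of -0.27 between the scrambled and the untransfected library. The library that stood apart for this word was the scrambled one, which was low. These ratios share libraries and are not independent of each other. The words were also chosen from calls against the scrambled library. That choice favours a low scrambled value for holders of GCAGTAC and a low SPRR1A siRNA value for holders of GTCACCC.

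More copies of GCAGTAC went with a larger ratio. The 521 genes with 1 copy had a median log2 ratio of 0.31 and 17.1% were called higher. The 31 genes with 2 or more copies had a median of 0.81, 10 of them (32.3%) were called higher, and 0 were called lower. Their median between the scrambled and the untransfected library was -0.54. For GTCACCC the share called lower was 15.3% of 1101 genes with 1 copy and 19.0% of 189 genes with 2 or more, with medians of -0.19 and -0.13, so the share was larger and the median was not.

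Copies of GTCACCC followed by AGGC were then set apart, a context chosen after the values were seen. As background, Alu repeats that lie in the antisense direction carry this reading. In 282 genes every copy was of this kind, and 7.80% of them were called lower with a median log2 ratio of 0.00. Over all genes searched 6.79% were called lower, but those had a median 3′ UTR of 1124 bases, against 3890 for these holders. Among genes without GTCACCC and with 3′ UTRs of 2431 to 32870 bases, the median length was 3571 bases. Of those, 4.78% were called lower, with a median log2 ratio of 0.14. A difference from genes of like UTR length was not tested. In 1008 genes at least 1 copy was not followed by AGGC, and 18.1% of these were called lower with a median of -0.25. With 2 or more copies outside this context there were 95 genes, of which 27.4% were called lower with a median of -0.38. The first copy in GPRC5A, which is not printed above, is of the AGGC kind, and both of its other copies are not.

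Holders of either word had long 3′ UTRs, with a median of 3067.5 bases for GTCACCC and 3221 for GCAGTAC, against 1124 for all genes searched. Within each of 4 equal classes of UTR length the holders were called more often than other genes. The words were chosen from these same calls, so the shares by class are a description. The part of UTR length was not tested. In the shortest class, 7 to 445 bases, 25% of 52 holders of GTCACCC were lower against 5.87% of other genes. In the class of 446 to 1124 bases the shares were 25.6% and 5.56%. In the class of 1126 to 2429 bases they were 18.9% and 6.44%, and in the longest class, 2431 to 32870 bases, 11.9% and 4.78%. The difference was thus smallest in the longest UTRs. For GCAGTAC the shares called higher were 18.8% of 16 holders against 2.15% of other genes in the shortest class and 16.5% of 352 holders against 3.02% in the longest.

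The words were also searched in coding sequence. Of 1077 genes with GTCACCC in the coding sequence and not in the 3′ UTR, 9.84% were called lower. Of 1446 genes with GCAGTAC there and not in the 3′ UTR, 4.84% were called higher. Both shares lay above those of all genes searched and below those of UTR holders. The complements of these words, GGGUGAC and GUACUGC, occurred as bases 2 to 8 of 0 of the 2545 human mature microRNAs in the RefSeq table used. Whether either word matches the seed of an siRNA used here was not tested, because neither siRNA sequence was at hand.

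**Figure D3:**
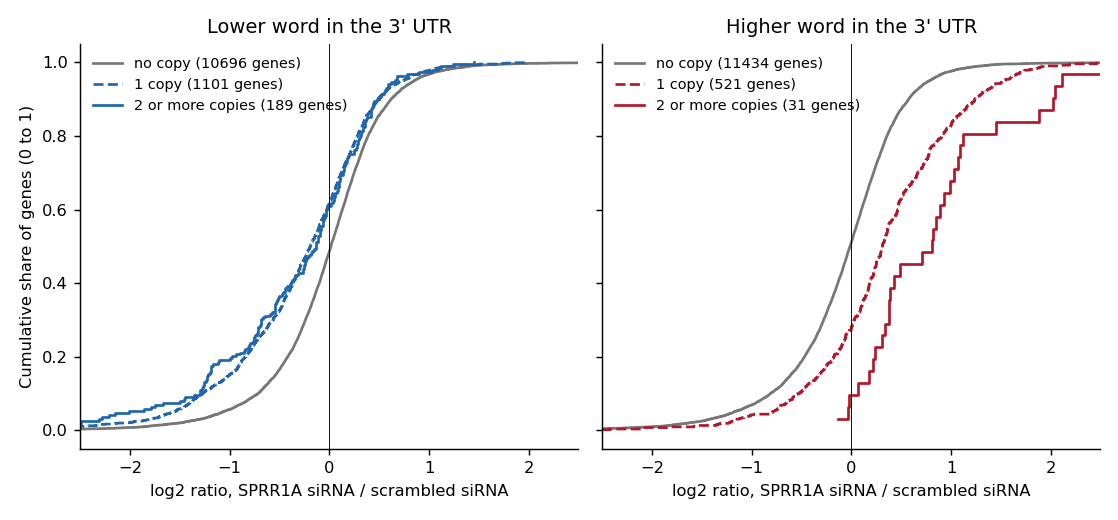
Cumulative share of genes (vertical axis) by log2 ratio of the SPRR1A siRNA to the scrambled library (horizontal axis), split by the number of copies in the 3′ UTR of the word of lower genes (left) and of higher genes (right). Over the middle of the range the curves of 1101 and 189 holders lie to the left of genes without the lower word, and those of 521 and 31 holders lie to the right of genes without the higher word, farthest for 2 or more copies.

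Of the 15 genes farthest below the scrambled library among those with at least 10 CPM in the higher library, 9 held GTCACCC. That word was in 10.8% of all genes searched. It was chosen from calls that include these genes, so the count is a description. CYP2S1, a cytochrome P450, had 28.8 CPM in untransfected cells, 32.0 with the scrambled siRNA and 2.88 with the SPRR1A siRNA, 11.1-fold lower than scrambled (9.06 to 13.8). ADAM19, a membrane-bound metalloprotease that sheds other surface proteins, had 35.7, 52.2 and 5.02 CPM in that order, 10.4-fold lower (8.89 to 12.2). In both genes the controls were within a factor of 2 of each other and the SPRR1A siRNA library was the low one. TNFRSF1B, a receptor for tumour necrosis factor, had 17.5, 30.6 and 4.58 CPM and was 6.69-fold lower (5.65 to 7.96).

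AP1M1 encodes the medium subunit of the clathrin adaptor AP-1 and holds GTCACCC in 2 copies whose printed windows overlap. It had 164 CPM in untransfected cells, 195 with the scrambled siRNA and 32.0 with the SPRR1A siRNA, 6.11-fold lower than scrambled (5.73 to 6.51). SLC35A4, a member of the nucleotide sugar transporter family, had 115, 137 and 21.3 CPM and was 6.43-fold lower (5.94 to 6.96). The abundant GPRC5A, an orphan G protein-coupled receptor induced by retinoic acid, holds 3 copies of GTCACCC and 1 of GCAGTAC, and its 335, 438 and 77.5 CPM made it 5.65-fold lower (5.42 to 5.89). All 3 genes had similar values in both controls.

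CYB5R3, the reductase that passes electrons from NADH to cytochrome b5, had 286 CPM in untransfected cells, 249 with the scrambled siRNA and 46.6 with the SPRR1A siRNA, 5.35-fold lower than scrambled (5.07 to 5.65). CORO2B, an actin-binding coronin, had 27.8, 24.1 and 4.05 CPM and was 5.95-fold lower (4.97 to 7.17). LPCAT3, which puts polyunsaturated fatty acids into phosphatidylcholine, had 44.8, 40.8 and 7.19 CPM and was 5.68-fold lower (4.96 to 6.53). LPCAT3 overlaps EMG1, which had 4390, 4761 and 4321 counts, and the sum of these genes was 1.28-fold lower. EMG1 makes up most of that sum, so the sum cannot show what LPCAT3 did. How reads of overlapping genes were assigned is not known, so the value of LPCAT3 is uncertain.

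The other 6 of the 15 did not hold GTCACCC in the 3′ UTR searched. MMP3, the matrix protease stromelysin-1, had 2.85 CPM in untransfected cells, 13.5 with the scrambled siRNA and 1.03 with the SPRR1A siRNA, 13.1-fold lower than scrambled (9.32 to 19.1). ABCG2, an efflux pump that exports drugs from cells, had 4.62, 10.3 and 1.82 CPM and was 5.68-fold lower (4.33 to 7.55). In both genes the scrambled library was also well above the untransfected one, so that the fold to untransfected cells was smaller.

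CAVIN2, a coat protein of caveolae, had 11.7 CPM in untransfected cells, 10.7 with the scrambled siRNA and 1.5 with the SPRR1A siRNA, 7.14-fold lower than scrambled (5.32 to 9.76). SYNPO, an actin-associated protein, had 42.4, 59.0 and 9.65 CPM and was 6.11-fold lower (5.44 to 6.89). CPA4, a secreted carboxypeptidase, had 133, 158 and 28.9 CPM and was 5.46-fold lower (5.10 to 5.84). SNX15, a sorting nexin of endosomes, had the largest fold, with 39.9, 33.2 and 0.44 CPM and a value 75.3-fold below scrambled (45.5 to 135). SNX15 is uncertain, because the readthrough gene ARL2-SNX15 overlaps it and went the other way, with 306, 297 and 594 counts. Added together, these genes were 2.31-fold lower.

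Of the 15 genes farthest above the scrambled library, 13 held GCAGTAC. That word was in 4.61% of all genes searched, and it was chosen from calls that include these genes. HIPK3, a nuclear protein kinase with 2 copies, had 44.1 CPM in untransfected cells, 14.8 with the scrambled siRNA and 95.6 with the SPRR1A siRNA, 6.48-fold higher than scrambled (5.91 to 7.11). ALCAM, the adhesion molecule CD166, had 488, 142 and 657 CPM and was 4.64-fold higher (4.50 to 4.79). EMP2, a tetraspan membrane protein with 3 copies, had 99.5, 15.4 and 66.9 CPM and was 4.35-fold higher (3.97 to 4.78). In HIPK3 the SPRR1A siRNA library was also above the untransfected one, while EMP2 was highest in untransfected cells.

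LSM14A, an RNA-binding protein of processing bodies with 2 copies, had 175 CPM in untransfected cells, 58.2 with the scrambled siRNA and 236 with the SPRR1A siRNA, 4.06-fold higher than scrambled (3.87 to 4.26). XPR1, the phosphate exporter, also with 2 copies, had 40.8, 15.1 and 62.2 CPM and was 4.13-fold higher (3.76 to 4.54). STEAP3, a ferrireductase of endosomes, had 131, 32.7 and 119 CPM and was 3.64-fold higher (3.41 to 3.89). TMEM170B, which holds 4 copies, had 10.5, 4.27 and 15.8 CPM and was 3.71-fold higher (3.10 to 4.47). In each of these genes the scrambled library was the low one of the 3.

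SLC41A1, a magnesium transporter, had 36.4 CPM in untransfected cells, 14.6 with the scrambled siRNA and 62.5 with the SPRR1A siRNA, 4.27-fold higher than scrambled (3.88 to 4.71). NKAIN1, which binds the sodium-potassium pump, had 19.4, 3.83 and 17.6 CPM and was 4.61-fold higher (3.82 to 5.58). SBNO1 had 98.2, 54.3 and 209 CPM and was 3.85-fold higher (3.67 to 4.05). The protein kinase UHMK1 had 155, 87.6 and 327 CPM and was 3.74-fold higher (3.59 to 3.89). For NKAIN1 the SPRR1A siRNA and untransfected libraries were close, and for SBNO1 and UHMK1 the SPRR1A siRNA library stood above both controls. ANKRD46, with 11, 6.25 and 35.8 CPM, was 5.73-fold higher (4.97 to 6.63). SLC7A2, a transporter of cationic amino acids, had 8.0, 2.20 and 12.4 CPM and was 5.61-fold higher (4.41 to 7.21).

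SNRNP27 and SEPTIN5 were the 2 of the 15 without GCAGTAC. SNRNP27, a protein of the spliceosomal tri-snRNP, had 24.9 CPM in untransfected cells, 9.86 with the scrambled siRNA and 49.7 with the SPRR1A siRNA, 5.04-fold higher than scrambled (4.50 to 5.67). SEPTIN5, a filament-forming GTPase, had 20.2, 4.10 and 14.9 CPM and was 3.64-fold higher (3.03 to 4.40). SEPTIN5 is uncertain, since the readthrough gene SEPT5-GP1BB overlaps it with 930, 475 and 226 counts, and added together these genes were 1.26-fold higher. In all 15 of these genes the scrambled value was the lowest of the 3 libraries, which the choice of genes far above the scrambled library favours.

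**Figure D4:**
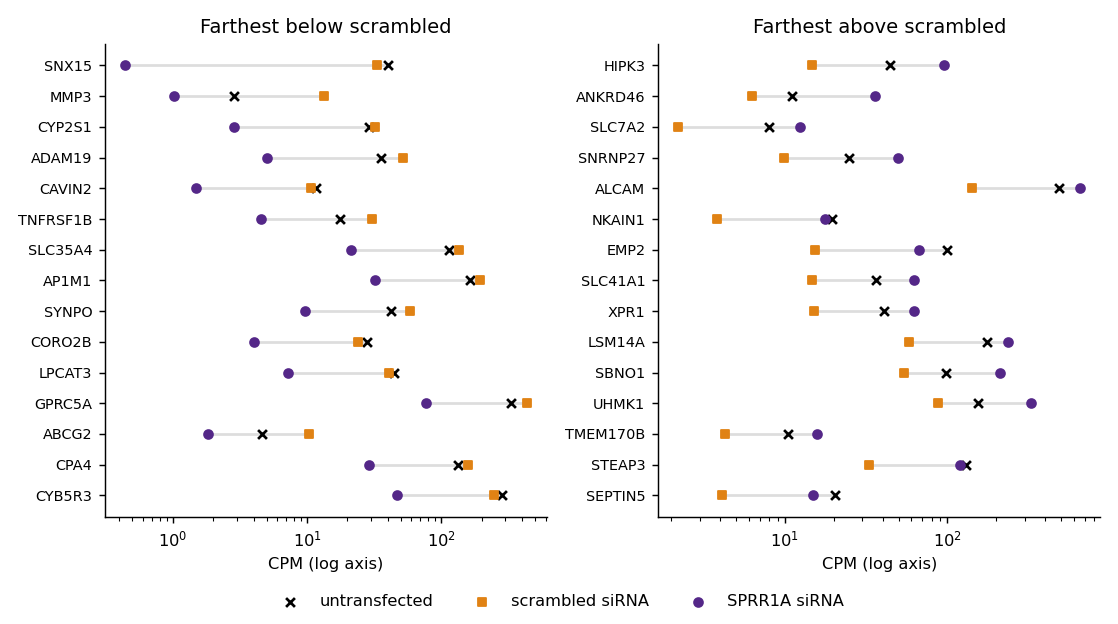
CPM on a log axis in the untransfected, scrambled siRNA and SPRR1A siRNA libraries for the 15 genes farthest below (left) and farthest above (right) the scrambled library, 1 library per symbol. On the left the SPRR1A siRNA value is the lowest of the 3 in each gene, and on the right the scrambled value is, with the untransfected value at varying distance from it.

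Pathways were described with 42 gene lists, which held 1266 of the genes. Of these genes 35 (2.76%) were called higher and 77 (6.08%) lower, close to the 3.68% and 7.09% of all genes. Among them, 11 of the 35 higher genes held GCAGTAC and 23 of the 77 lower genes held GTCACCC. Over all genes searched, these words were in 26.7% of those called higher and 25.1% of those called lower. List medians ran from -0.55 to 0.24. The counts of called members in each list below are to be read beside the 3.68% higher and 7.09% lower of all genes. In 7 lists no member was called, namely autophagy machinery (32 members), the hedgehog pathway (27), feedback phosphatases and Sprouty genes of the ERK pathway (23), chemokines and receptors (6), kinesin and dynein motors (40), proteasome subunits (39) and enzymes of the tricarboxylic acid cycle (38). Proteasome subunits were the tightest of these, with 37 of 39 within 0.5 of a log2 ratio of 0.

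**Figure D5:**
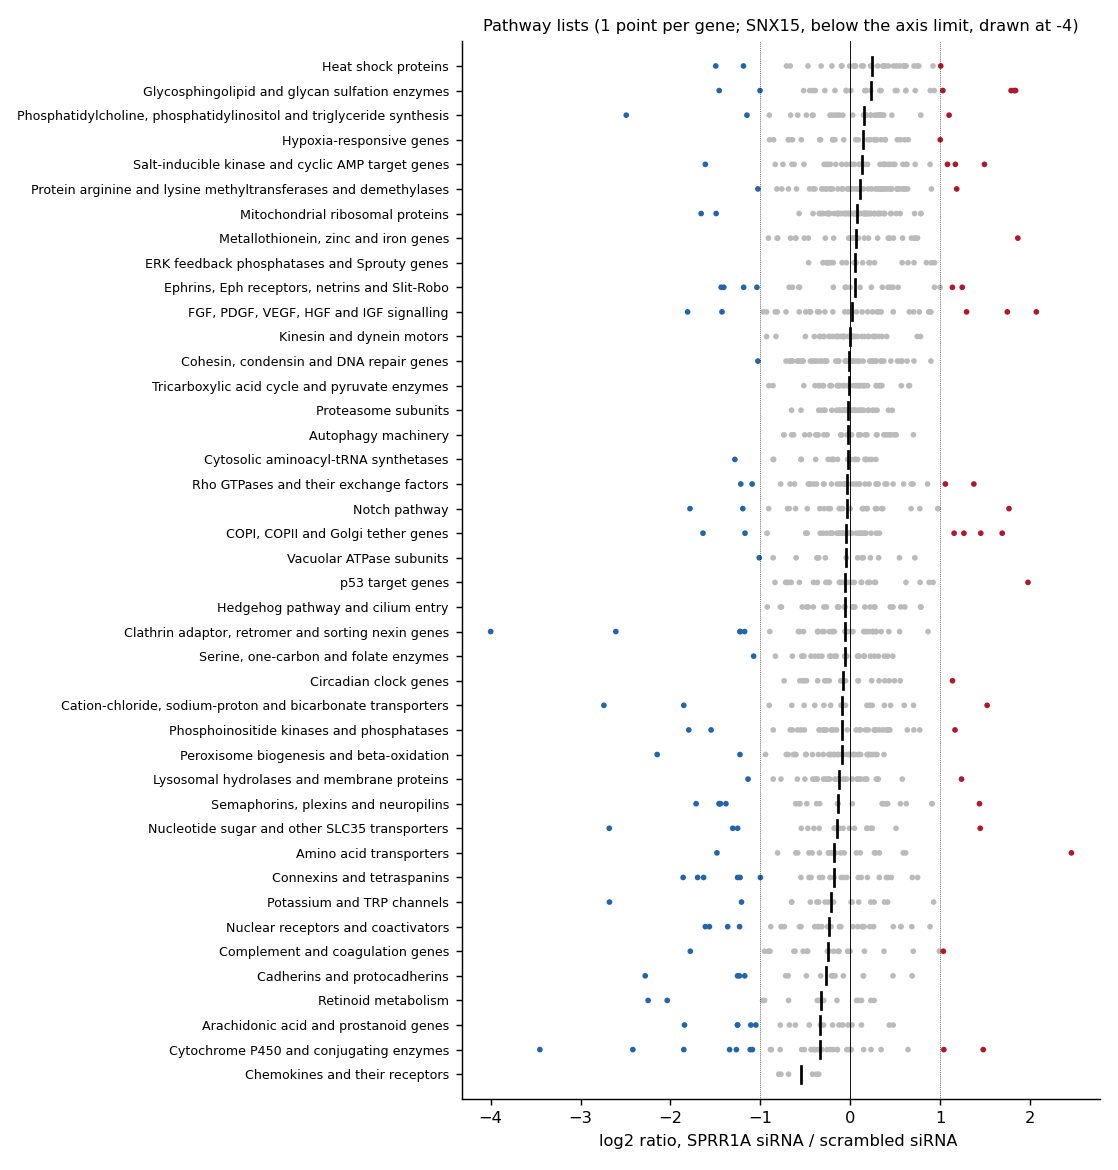
Log2 ratio of the SPRR1A siRNA to the scrambled library for the members of 42 pathway lists, 1 point per gene, called genes in colour, list medians as black bars and dotted lines at 2-fold. Medians lie between -0.55 (chemokines) and 0.24 (heat shock proteins), and called members sit in most lists without moving the median far.

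Enzymes that build and sulfate glycans had 4 higher and 2 lower members of 27, with a median log2 ratio of 0.23. The higher ones were HS6ST1, CHPF, CHST15 and CHSY1, which act on heparan or chondroitin sulfate by sulfation or chain growth. The first 3 are described here and reached over 3-fold. HS6ST1, a heparan sulfate 6-O-sulfotransferase, had 62.5 CPM in untransfected cells, 17.5 with the scrambled siRNA and 62.6 with the SPRR1A siRNA, 3.58-fold higher than scrambled (3.28 to 3.92). CHPF, a chondroitin polymerizing factor, had 62.6, 15.8 and 54.5 CPM and was 3.46-fold higher (3.15 to 3.81). CHST15, a chondroitin sulfate sulfotransferase, had 9.87, 4.05 and 14.5 CPM and was 3.57-fold higher (2.97 to 4.33). For HS6ST1 and CHPF the SPRR1A siRNA value was close to the untransfected one. CHPF and CHST15 held GCAGTAC and HS6ST1 did not, and CHPF overlaps TMEM198 (176, 289 and 135 counts), which leaves its sum 2.47-fold higher. NDST1, which starts the sulfation of heparan sulfate, went the other way, with 156, 163 and 59.4 CPM, 2.75-fold lower (2.61 to 2.89), and holds 2 copies of GTCACCC.

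Genes of COPI, COPII and Golgi tethers, which move cargo between the endoplasmic reticulum and the Golgi, had 4 higher and 2 lower members of 38 and a median of -0.04. GOLGA4, a golgin, had 80.2 CPM in untransfected cells, 36.2 with the scrambled siRNA and 117 with the SPRR1A siRNA, 3.23-fold higher than scrambled (3.03 to 3.44). SEC24B, a cargo-binding subunit of the COPII coat, had 45.3, 27.2 and 74.4 CPM and was 2.74-fold higher (2.54 to 2.95). SAR1B, the GTPase that starts the coat, was 2.40-fold higher (2.21 to 2.61) and SEC24A 2.23-fold higher (2.08 to 2.39). Of these 4, all but SEC24B held GCAGTAC. SEC24D, another cargo-binding subunit, was 2.25-fold lower (2.12 to 2.40), and GORASP1, which stacks Golgi cisternae, was 3.12-fold lower (2.78 to 3.52), so paralogous SEC24 genes were called in opposite directions. GORASP1 overlaps WDR48 with 1422, 1211 and 1483 counts, their sum was 1.24-fold lower, and the call of GORASP1 is uncertain.

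Clathrin adaptors, retromer and sorting nexins had a median of -0.06. Of 37 members 5 were lower and 0 higher, beside 7.09% and 3.68% of all genes. Besides AP1M1 and SNX15 the lower ones were EPN1, AP2A1 and SNX9, which all act in endocytosis. EPN1, which helps bend the membrane of clathrin-coated pits, had 135 CPM in untransfected cells, 159 with the scrambled siRNA and 67.7 with the SPRR1A siRNA, 2.35-fold lower than scrambled (2.23 to 2.46). It holds 4 copies of GTCACCC. AP2A1, a large subunit of the adaptor AP-2, had 66.0, 96.7 and 41.5 CPM and was 2.33-fold lower (2.19 to 2.48). SNX9 had 207, 228 and 101 CPM and was 2.26-fold lower (2.17 to 2.35). AP2A1 and SNX9 held neither word. AP2A1 overlaps FUZ, and added together these genes were 1.99-fold lower.

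Lysosomal hydrolases and membrane proteins had 1 higher and 1 lower member of 33. LAMP2, a major lysosomal membrane protein, had 108 CPM in untransfected cells, 49.8 with the scrambled siRNA and 118 with the SPRR1A siRNA, 2.36-fold higher than scrambled (2.23 to 2.49), and holds GCAGTAC. ARSB, which removes sulfate from chondroitin and dermatan sulfate, had 21.8, 21.9 and 9.95 CPM, was 2.21-fold lower (1.94 to 2.51) and holds GTCACCC. For LAMP2 the low library was the scrambled one and for ARSB the SPRR1A siRNA one. Of 16 vacuolar ATPase subunits only ATP6V0C was called, 2.02-fold lower (1.93 to 2.12) with 132, 150 and 74.4 CPM.

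Calls in the transporter lists went in both directions. Among 20 SLC35 members, SLC35A4, SLC35E4 (2.48-fold, 2.20 to 2.81) and SLC35B2, the Golgi importer of the sulfate donor (2.38-fold, 2.28 to 2.49), were lower and SLC35D1 was 2.73-fold higher (2.47 to 3.01). Among 22 amino acid transporters, SLC7A2 was higher and SLC7A8, a carrier of neutral amino acids with 60.2, 38.2 and 13.6 CPM, was 2.80-fold lower (2.52 to 3.12). Among 20 cation-chloride, sodium-proton and bicarbonate transporters, SLC12A8 with 8.42, 9.72 and 1.41 CPM was 6.90-fold lower (5.09 to 9.54) and SLC4A8 was 2.90-fold higher (2.37 to 3.57). TRPV2, a cation channel, had 82, 72 and 9 counts and was 7.51-fold lower (3.74 to 17.1), the larger of 2 lower calls among 18 potassium and TRP channels. SLC35D1 overlaps MIER1, and their sum was 1.86-fold higher. SLC7A2 and SLC35D1 held GCAGTAC, and SLC35B2 and SLC12A8 held GTCACCC.

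Among guidance cues, semaphorins, plexins and neuropilins had 5 lower and 1 higher of 24, with a median of -0.14, where all genes had 7.09% lower and 3.68% higher. SEMA7A, a membrane-anchored semaphorin, had 40.4 CPM in untransfected cells, 101 with the scrambled siRNA and 38.6 with the SPRR1A siRNA, 2.61-fold lower than scrambled (2.45 to 2.78), and here the SPRR1A siRNA and untransfected libraries were close. The secreted SEMA3C had 12.6, 21.9 and 6.63 CPM and was 3.30-fold lower (2.84 to 3.84). SEMA3A had 27.8, 36.3 and 13.2 CPM and was 2.75-fold lower (2.47 to 3.07). None of these 3 held GTCACCC, while SEMA4F, with 25.3, 9.64 and 26.2 CPM and 2.72-fold higher (2.40 to 3.08), held GCAGTAC. Ephrins, Eph receptors, netrins and Slit-Robo genes had 4 lower and 2 higher of 24 with a median of 0.05, among them the receptors ROBO4, 2.67-fold lower (2.25 to 3.17), and EPHB3, 2.20-fold higher (1.94 to 2.51).

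Growth factor genes of the FGF, PDGF, VEGF, HGF and IGF families had 3 higher and 2 lower of 34, with a median of 0.02. The higher ones were FGF5, INSR and PGF. FGF5, a secreted fibroblast growth factor, had 46.0 CPM in untransfected cells, 29 with the scrambled siRNA and 97.3 with the SPRR1A siRNA, 3.36-fold higher than scrambled (3.13 to 3.60). INSR, the insulin receptor, had 52.5, 36.9 and 90.4 CPM and was 2.45-fold higher (2.30 to 2.62). For both genes the SPRR1A siRNA library was above both controls, and neither held GCAGTAC. HGF, the ligand of the MET receptor, had 36.9, 34.0 and 9.65 CPM and was 3.52-fold lower (3.11 to 3.99). PDGFRB, a receptor of platelet-derived growth factor, had 22.9, 16.2 and 5.99 CPM and was 2.71-fold lower (2.30 to 3.19).

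In the Notch list, 1 member was higher and 2 lower of 28. DTX4, a ubiquitin ligase of the Deltex family, had 49.8 CPM in untransfected cells, 43.6 with the scrambled siRNA and 12.6 with the SPRR1A siRNA, 3.45-fold lower than scrambled (3.10 to 3.85), and holds GTCACCC. The ligand gene JAG2, with 73, 35 and 116 counts, was 3.53-fold higher (2.40 to 5.31). Phosphoinositide kinases and phosphatases had 1 higher and 2 lower of 38. PIK3R2, a regulatory subunit of phosphoinositide 3-kinase, had 73.1, 66.2 and 19.0 CPM and was 3.48-fold lower (3.19 to 3.80), and PIK3C2B was 2.93-fold lower (2.65 to 3.25), both holding GTCACCC. Another regulatory subunit, PIK3R3, had 10.5, 17.8 and 40.1 CPM and was 2.24-fold higher (2.04 to 2.47). The genes of these regulatory subunits were thus called in opposite directions.

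Nuclear receptors and coactivators had 4 lower and 0 higher of 30, beside 7.09% and 3.68% of all genes, with a median of -0.23. RXRA, the shared partner of many nuclear receptors, had 94.3 CPM in untransfected cells, 74.2 with the scrambled siRNA and 25.0 with the SPRR1A siRNA, 2.97-fold lower than scrambled (2.75 to 3.21), and holds GTCACCC. PPARD, a receptor for fatty acids, had 79.1, 72.9 and 28.3 CPM and was 2.58-fold lower (2.39 to 2.78). In both genes the controls were close and the SPRR1A siRNA library was low. The retinoid enzymes RDH5 and DHRS9 were the called members of 14 in their list, at 146 against 32 counts and 215 against 41 counts in the scrambled and the SPRR1A siRNA library. RDH5 overlaps the abundant CD63 gene, and their sum was 1.08-fold lower. CD63 makes up most of that sum, so the sum cannot show what RDH5 did, and RDH5 is uncertain.

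Cytochrome P450 and conjugating enzymes had 7 lower and 2 higher of 33, beside 7.09% and 3.68% of all genes, and a median of -0.34. Besides CYP2S1 and CYB5R3, CYP1A1, which oxidises aromatic hydrocarbons, was lower, with 31.3 CPM in untransfected cells, 54.2 with the scrambled siRNA and 25.4 with the SPRR1A siRNA, 2.13-fold (1.96 to 2.31). SULT1A3 and SULT1A4 were 3.64-fold (3.09 to 4.30) and 2.54-fold (2.24 to 2.89) lower, but they are near-identical copies that also overlap readthrough genes, and both are uncertain. CYP27B1, which makes active vitamin D, had 95, 50 and 134 counts and was 2.86-fold higher (2.05 to 4.03). Arachidonic acid and prostanoid genes had 5 lower and 0 higher of 19, with a median of -0.33. MGLL, which splits monoglycerides, had 73.1, 60.2 and 25.2 CPM and was 2.39-fold lower (2.21 to 2.59). PLA2G4A, the phospholipase that frees arachidonic acid, had 40.3, 30.4 and 14.1 CPM and was 2.16-fold lower (1.94 to 2.41).

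Connexins and tetraspanins had 6 lower and 0 higher of 25, beside 7.09% lower and 3.68% higher over all genes. TSPAN14, a partner of the protease ADAM10, had 50.7 CPM in untransfected cells, 45.6 with the scrambled siRNA and 12.5 with the SPRR1A siRNA, 3.64-fold lower than scrambled (3.27 to 4.06), and holds 2 copies of GTCACCC. CD151, a tetraspanin bound to laminin-binding integrins, had 300 CPM in untransfected cells, 264 with the scrambled siRNA and 111 with the SPRR1A siRNA, 2.39-fold lower (2.30 to 2.48), and holds neither word. Cadherins and protocadherins had 4 lower and 0 higher of 16. The only one of them above 10 CPM was FAT4, an atypical cadherin, with 28.3, 38.8 and 16.5 CPM and 2.36-fold lower (2.13 to 2.60).

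Heat shock proteins had the highest list median, 0.24, with 1 higher and 2 lower of 35 and 25 of 35 above a ratio of 1. HSP90AA1, the inducible cytosolic HSP90, had 2888 CPM in untransfected cells, 2087 with the scrambled siRNA and 4189 with the SPRR1A siRNA, 2.01-fold higher than scrambled (1.99 to 2.03), a call that was lost with total counts as the scaling. The co-chaperones DNAJB1 and DNAJB5 were lower, 2.28-fold (2.20 to 2.37) and 2.88-fold (2.14 to 3.91). DNAJB1 overlaps TECR with 4489, 3773 and 2912 counts, and their sum was 1.83-fold lower.

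Of 57 methyltransferases and demethylases of chromatin and DNA, 1 was called higher and 1 lower. KDM1A, a histone demethylase, had 120 CPM in untransfected cells, 85.2 with the scrambled siRNA and 193 with the SPRR1A siRNA, 2.27-fold higher than scrambled (2.18 to 2.37). It overlaps LUZP1 with 3329, 1966 and 1892 counts, and the sum was 1.79-fold higher. TET2, which oxidises methylated cytosine, was 2.05-fold lower (1.77 to 2.36). Among salt-inducible kinase and cyclic AMP targets, 3 were higher and 1 lower of 36. ATF1, a transcription factor of the CREB family, had 41.2, 24.5 and 51.9 CPM and was 2.12-fold higher (1.95 to 2.30). SIK1 was 2.83-fold higher (2.43 to 3.29) with 6.68, 6.58 and 18.6 CPM, but it has a near-identical copy and is uncertain. Among 22 circadian clock genes the repressor CRY1 was the called one, with 26.0, 20.6 and 45.3 CPM and 2.20-fold higher (2.02 to 2.41).

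Mitochondrial ribosomal proteins had 2 lower and 0 higher of 73. MRPS27, of the small subunit, had 91.2 CPM in untransfected cells, 102 with the scrambled siRNA and 32.2 with the SPRR1A siRNA, 3.16-fold lower than scrambled (2.96 to 3.39). MRPL51, of the large subunit, had 159, 149 and 53.1 CPM and was 2.82-fold lower (2.67 to 2.97). Both hold GTCACCC, and 8 of the 73 members do. The list median was 0.07. A like case was CARS1, the cysteinyl-tRNA synthetase, which was the called member of 23 cytosolic synthetases, with 80.7, 90.0 and 36.9 CPM, 2.44-fold lower (2.28 to 2.60) and GTCACCC in its 3′ UTR. RAD51C, a recombination gene with GTCACCC, was the called member of 55 cohesin, condensin and repair genes, 2.05-fold lower (1.68 to 2.51).

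A few lipid genes outside the sterol pathway were called. CPT1B, which acts in the import of fatty acids into mitochondria, had 9.40 CPM in untransfected cells, 11.8 with the scrambled siRNA and 2.61 with the SPRR1A siRNA. It was 4.50-fold lower than scrambled (3.58 to 5.72) but overlaps the readthrough gene CHKB-CPT1B, which had 667, 220 and 617 counts. Their sum was 1.16-fold higher, so CPT1B is uncertain. ETNK1, ethanolamine kinase, had 43.1, 53.8 and 115 CPM and was 2.14-fold higher (2.03 to 2.26), and PLIN2, a lipid droplet coat, was 2.22-fold lower (2.11 to 2.34).

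The cell type label was checked against marker genes on the TPM scale, which is per length. Mesenchymal markers had a summed level of 5414 TPM in untransfected cells, 5006 with the scrambled siRNA and 2612 with the SPRR1A siRNA, and 4 of 15 measured at 1 CPM or more were called lower and 0 higher. Most of that sum was VIM, vimentin, at 3510, 3523 and 1436 TPM, while PRRX1 had 20, 13 and 0 counts. Keratinocyte and epithelial markers summed to 7468, 3419 and 4238 TPM, mostly KRT14 (3739, 1439 and 1934 TPM) and KRT6A (2803, 1210 and 1761 TPM). Also present were KRT18 (353, 295 and 285 TPM), PERP (268, 233 and 63.1 TPM) and KRT8 (127, 132 and 103 TPM). Of 13 measured at 1 CPM or more, 4 were called lower, namely TP63, ITGB4, SFN and PERP, and 0 higher. ITGB4 overlaps GALK1 with 773, 468 and 543 counts, their sum was 1.08-fold lower, and the call of ITGB4 is uncertain. CDH1 (2, 2 and 9 counts) and EPCAM (5, 14 and 8 counts), which define epithelia, were near 0, while KRT5 was at 5.51, 1.36 and 2.73 TPM and TP63 at 0.669, 0.963 and 0.282 TPM. The cultures thus held vimentin and some keratins, and whether the same cells carried both cannot be told from bulk RNA. Chondrocyte markers summed to 26.5, 18.3 and 13.8 TPM, mostly SOX9 (23.7, 15.7 and 9.11 TPM). Of these 12 genes, 3 were at 0 in all libraries, including COL2A1. Endothelial and blood markers summed to 172, 123 and 115 TPM with 4 of 15 at 0, including CDH5 and HBB. CD68 made up most of the latter sum (135, 99.9 and 83.6 TPM). HBA1 (22.8, 13.2 and 21.5 TPM) and TEK (11.4, 7.91 and 6.88 TPM) were next. Muscle and neural markers summed to 1556, 1149 and 1157 TPM, nearly all TUBB3, with 4 of 15 at 0, including MYOD1. The part of these marker levels in the gene and list values above was not tested.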

How the data were processed

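The authors deposited whole-number read counts per gene with FPKM and TPM values for 3 libraries. HISAT2 2.1.0 and the builds GRCh38 and hg38 are named, per the submitters' processing notes, and per the labels' protocols the kit marks strand. The counting tool, its annotation and strand setting are not given in the sources used here, so overlapping genes were treated as uncertain. Deposited TPM (sums of 999225 untransfected, 999391 scrambled, 999131 SPRR1A siRNA) served for marker sums and 1 alternative, and the deposited FPKM were used for no result.

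CPM were computed here from the counts with TMM factors of edgeR 4.0.16 (R 4.3.3) over the 3 libraries, 1.0169, 0.994 and 0.9892 in the same order. Log2 ratios had a prior count of 2, and intervals were exact conditional binomial 95% intervals from scipy 1.17.1. Sites were read from GENCODE 29 (principal transcript, then longest 3′ UTR), joined through NCBI Gene identifiers, and figures were drawn with matplotlib 3.10.9.

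Genes named were SPRR1A, the 15 farthest in each direction among called genes with at least 10 CPM, leaving out readthrough, LOC, pseudogene and antisense symbols and members of sterol, osteoblast and interferon lists, up to 4 called members per list, and markers. The called members described per list were not always those with the largest ratios. Genes and lists were chosen with earlier results of these data known. Neighbouring genes and the words ranked after the first were named after their values were seen.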

Additional observations from a re-analysis of the deposited data

How the results depend on the processing

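No paired analysis was possible because each group holds 1 library. The 513 higher and 988 lower genes were 520 and 986 with median-of-ratios size factors, 501 and 998 with total counts, and 531 and 1010 with a prior count of 0.5. They moved by over 1.5 times to 1182 higher and 1964 lower with no filter on low counts, to 301 and 558 with a filter of 5 CPM, to 1596 and 2202 with a 1.5-fold threshold, and to 288 and 522 on the log2(TPM + 1) scale with no interval. The no-filter and 5 CPM counts cover 23293 and 11178 genes. The share of GTCACCC holders called lower, 15.8%, was 14.4% with the longest 3′ UTR of any transcript, 12.02% for coding sequence, and 18.1% without copies followed by AGGC, an alternative added after the data were seen. The share of GCAGTAC holders called higher, 17.9%, was 16.7% with the longest 3′ UTR and 5.83% for coding sequence. These coding sequence shares include genes that also hold the word in the 3′ UTR, unlike the coding sequence shares given earlier. The 30 genes farthest from the scrambled library kept direction and call in all 240 recomputed ratios. Neither change of filter nor the 1.5-fold threshold could alter these, so the 30 ratios under each of them were fixed in advance. Of the list medians recomputed, 397 stayed within their spread and 3 moved, all for chondrocyte or muscle and neural markers under a change of filter. The 1.5-fold threshold could not move a median, which fixed 50 of those that stayed. Counts of called list members were less steady, with 137 moved and 663 not, of which 70 moved with the 1.5-fold threshold, 28 on the log2(TPM + 1) scale and 18 with each change of filter. With total counts the only higher calls of the heat shock and hypoxia lists were lost. Depth limits low genes most, and no setting stands in for replicates.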

Other observations

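Genes that share a symbol stem were counted as a description, for stems held by at least 40 of the genes. The zinc finger genes whose symbols start with ZNF, mostly DNA-binding repressors, numbered 453, of which 26 (5.74%) were called higher and 11 (2.43%) lower in the SPRR1A siRNA library, with a median log2 ratio of 0.25 beside 0.00 over all genes. Over all genes 3.68% were higher and 7.09% lower. Of 65 EIF genes, which start translation, 0 were called higher and 1 lower, and of 40 CEP genes, which encode centrosomal proteins, 1 was higher and 0 lower. The largest shares called lower were 13.6% of 44 TRIM genes, many of them ubiquitin ligases, 13.2% of 76 ATP genes, 11.9% of 42 MAP genes and 11.7% of 60 RAB genes. The largest shares called higher were 8.33% of 60 RPS genes, pseudogenes included, and 7.5% of 40 ZBTB genes. SLC transporter genes, with 9.26% of 216 lower, were near the share over all genes. Across the 22 autosomes and chromosome X, median log2 ratios ran from -0.07 on chromosome 17 to 0.14 on chromosome 21. The 27 mitochondrial genes measured had a median of 0.30.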
